A study of Mus musculus with 20 samples.

Results

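The hemisphere opposite a cortical stroke was compared between mice given hydroxypropyl-β-cyclodextrin (HPBCD) and mice given vehicle. The members were the 10 RNA-seq libraries of contralateral tissue, 5 from HPBCD-treated and 5 from vehicle-treated animals, out of 20 in the series, and they were chosen from the region and treatment labels alone. All animals were male C57BL/6J mice aged 18 months that had received a distal middle cerebral artery occlusion combined with hypoxia. Injections, either of PBS as vehicle or of HPBCD at 4 g/kg, began 1 week after the stroke, were given subcutaneously 3 times a week for 6 weeks, and tissue was taken 7 weeks after the stroke. The contralateral tissue came from the region matching the dissected tissue beside the infarct, so every contralateral library belonged to an animal with a stroke, and no library came from an animal without one. The other 10 libraries, 5 per treatment, held peri-infarct tissue of the same animals. They were used to ask whether the treatment difference differed between the hemispheres, and for levels set beside those of contralateral tissue.

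HPBCD is a ring of sugar units with a water-repelling cavity that takes up cholesterol, and it is used to move cholesterol out of cells whose lysosomes are overfilled with it. Cells that sense too little sterol in the endoplasmic reticulum raise the SREBP2 targets that make and import cholesterol, and cells with a surplus of oxysterols raise the LXR targets that export it. Microglia, astrocytes and oligodendrocytes carry most of the lipid handling of the aged brain, while cortical neurons turn on immediate early genes such as Fos and Junb within minutes of activity. The contralateral hemisphere is the tissue of these animals that holds no infarct.

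The contralateral libraries held 14445021 to 21359733 gene counts each, and 15469 genes passed the filter on low counts. A level is given in CPM, the count of a gene divided by the TMM-scaled size of its library, and 3 counts, the floor for a gene listed at 0, corresponded to 0.14 to 0.208 CPM. Levels of different genes are not comparable, because CPM is not scaled by transcript length. Since whole tissue was sequenced, fewer cells of a type and less RNA per cell cannot be told apart.

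Before treatment was considered, 3 libraries stood apart in what they held. Striatal projection neuron genes were carried by vehicle contralateral replicate 1. Drd2, the D2 dopamine receptor (chromosome 9, 49340627 to 49408177, plus strand, GRCm38), measured 72.5 CPM in that library and 0.121 to 1.02 CPM in the other 9. Adora2a, an adenosine receptor of striatal neurons that project to the external pallidum, measured 185 CPM there and 1.07 to 4.23 CPM elsewhere. Penk, which encodes the enkephalin precursor, measured 1220 CPM against 46.2 to 120 CPM. All 18 striatal genes were highest in this library among the 10, and 17 of them exceeded the next library by more than 3-fold.

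The mean log2 level of the striatal list stood 3.33 above the vehicle average in vehicle replicate 1 and between -1.10 and -0.41 in the other 9 contralateral libraries. The peri-infarct libraries also carried these genes, with list levels from 0.21 to 2.66 and Drd2 from 3.18 to 43.3 CPM. The region labelled contralateral was thus nearly free of striatal RNA in 9 of its 10 libraries, while its peri-infarct counterpart was not.

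HPBCD contralateral replicate 3 carried choroid plexus. Ttr, the transthyretin gene that choroid plexus epithelium expresses at a very high level (chromosome 18, 20665280 to 20674321, plus strand, GRCm38), measured 582 CPM there and 0 to 6.08 CPM in the other 9 libraries. Its level in vehicle replicates 1 to 5 was 6.08, 1.11, 1.15, 0.0546 and 0.0997 CPM, and in the remaining HPBCD replicates 1, 2, 4 and 5 it was 0.254, 4.28, 4.77 and 0 CPM. Kl, which encodes klotho, measured 27.4 CPM in HPBCD replicate 3 against 1.03 to 6.11 CPM. Clic6, a chloride channel gene, measured 28.5 CPM against 0.204 to 8.08 CPM, with the second highest value in vehicle replicate 1. Otx2, the transcription factor of the choroid plexus, measured 7.47 CPM against 0 to 0.334 CPM. All 16 choroid plexus genes were highest in HPBCD replicate 3, 14 of them by more than 3-fold over the next library.

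**Figure D1:**
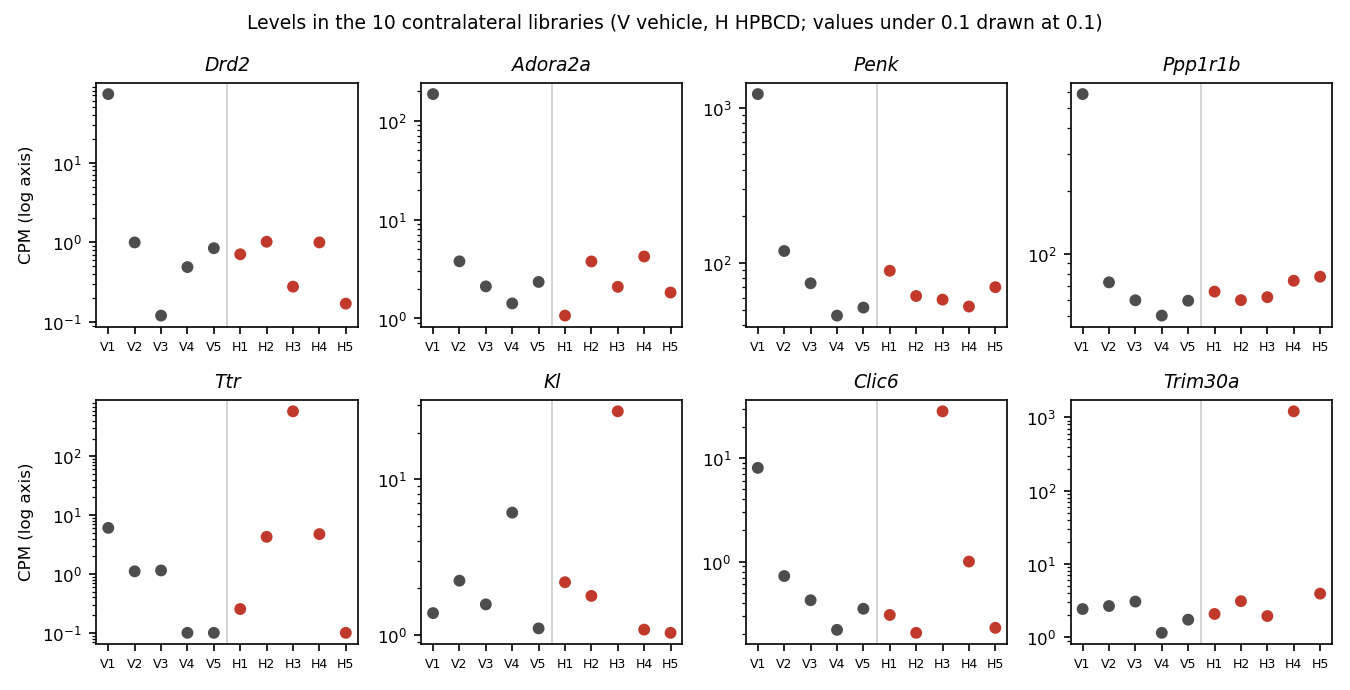
Levels of 8 genes in the 10 contralateral libraries (V1 to V5, vehicle replicates 1 to 5, grey; H1 to H5, HPBCD replicates 1 to 5, red), in CPM on a log axis with values under 0.1 drawn at 0.1. The striatal genes Drd2, Adora2a, Penk and Ppp1r1b were high in V1 alone, the choroid plexus genes Ttr, Kl and Clic6 peaked in H3, and Trim30a reached 1210 CPM in H4 only.

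Smaller admixtures were present as well. Vehicle replicate 3 carried ependyma, the ciliated lining of the ventricles: all 10 genes of that list were highest there, Ccdc153 at 9.94 CPM against 0 to 1.22 CPM and Foxj1 at 16.8 CPM against 1.96 to 8.63 CPM. Genes of fibroblasts and meninges were highest in vehicle replicate 2 for 10 of 11 members, with a list level of 1.52 above the vehicle average, followed by HPBCD replicate 3 at 1.21. Markers of hippocampus and thalamus did not gather in any single library, and no member of either list exceeded the next library by more than 3-fold. Genes of the cortical layers kept list levels between -0.13 and 0.33 in all 10 libraries, and Rorb, a transcription factor of cortical layer 4, measured 56.9 to 98.9 CPM across them.

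HPBCD replicate 4 stood apart in the kinds of RNA it held. It had 9.50% of its fragments, multiply aligned ones included, outside annotated genes and 8.03% assigned ambiguously, against at most 5.86% and 4.16% in the other contralateral libraries. The ribosomal RNA locus CT010467.1 measured 37000 CPM there and 284 to 683 CPM in the other 9, and the small nuclear RNA gene Rn7sk measured 79.8 CPM against 1.3 to 4.31 CPM. The same library held 1210 CPM of Trim30a, an interferon-inducible TRIM gene, against 1.15 to 3.94 CPM in the other 9 and 13.7 CPM in the peri-infarct library of the same animal. The log2 difference of Trim30a between the treatments was 6.77 with all libraries and 0.32 without this library. These 3 libraries (vehicle replicate 1, HPBCD replicates 3 and 4) are left out in the values given below as "without the 3 libraries", an alternative chosen after the data were seen.

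**Figure D2:**
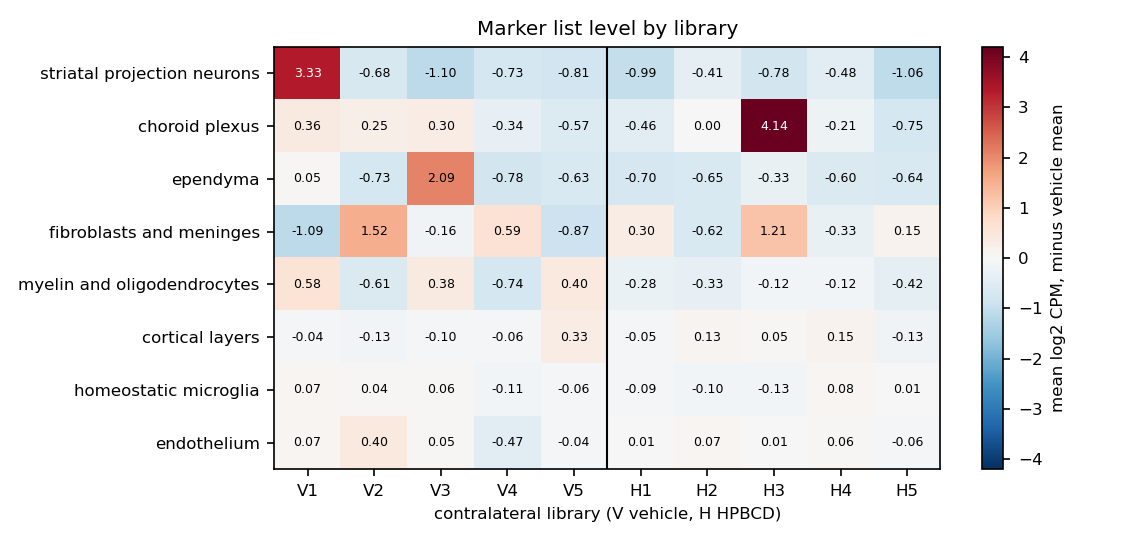
Mean log2 CPM of 8 marker lists in each contralateral library, minus the mean of the 5 vehicle libraries (V1 to V5 vehicle, H1 to H5 HPBCD; red above, blue below). The striatal list reached 3.33 in V1, the choroid plexus list 4.14 in H3 and the ependyma list 2.09 in V3, whereas microglia and cortical layers varied little.

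No gene passed the threshold between HPBCD and vehicle in contralateral tissue. The edgeR quasi-likelihood test called 0 of 15469 genes at an adjusted p under 0.05 (0.0% of those tested), and the lowest adjusted p was 0.236. At an unadjusted p under 0.05 there were 1224 genes (7.91%), 605 higher and 619 lower with HPBCD. DESeq2 on the same genes called 56, of which 39 were higher and 17 lower, and limma voom called 0. All 56 genes called by DESeq2 had an unadjusted edgeR p under 0.05, and the treatment groups did not overlap for 43 of them, beside 1.44% of all genes. Both methods used the same 10 libraries, so neither count is independent support for the DESeq2 calls.

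The intervals bound each difference gene by gene, without adjustment for the number of genes tested. The 95% interval of the fold change lay within 2-fold in either direction for 14009 genes (90.6%) and within 1.5-fold for 10987 genes, and the median half-width of the interval was 0.27 on the log2 scale. The groups did not overlap for 144 genes with HPBCD higher (0.931% of genes tested) and for 78 with HPBCD lower (0.504%). Of the 10 genes with the lowest p in each direction among those not overlapping and averaging at least 5 CPM, 19 are described next. Because their choice rested on this comparison, their separation is a description.

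Among genes higher with HPBCD, Cbln4 came first. It encodes a secreted cerebellin that links the presynaptic and postsynaptic sides of synapses (chromosome 2, 172036233 to 172043466, minus strand, GRCm38). Its level in vehicle replicates 1 to 5 was 14.4, 16.8, 13.6, 16.2 and 20 CPM, and in HPBCD replicates 1 to 5 it was 26.3, 28.4, 26.4, 31.8 and 41.2 CPM. Every HPBCD library lay above every vehicle library, with HPBCD replicate 5 the highest. The means were 16.2 ± 2.51 and 30.8 ± 6.23 CPM (SD, n = 5 each), a log2 difference of 0.92 (SE 0.14, 95% interval 0.61 to 1.22, edgeR adjusted p = 0.236). DESeq2 gave an adjusted p of 1.17e-05 for the same gene. The log2 difference was 0.79 to 1.00 when each library was left out in turn and 0.93 without the 3 libraries.

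A gene of the action potential was among the others. Scn1a, the sodium channel of fast-spiking interneurons (chromosome 2, 66270778 to 66440840, minus strand), measured 195, 226, 184, 177 and 208 CPM with vehicle. With HPBCD it measured 233, 286, 270, 312 and 271 CPM, without overlap, and its log2 difference was 0.46 (SE 0.09, edgeR adjusted p = 0.405).

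The remaining genes of the higher group differed by 0.29 to 0.66 on the log2 scale. They were Khdrbs3, an RNA-binding splicing regulator (0.41), the cyclin gene Ccng1 (0.38), the phospholipase gene Plcb4 (0.36), Ankrd34c (0.55), the annotated locus Gm12338 (0.66), the carbonic anhydrase related gene Car8 (0.57) and the protocadherin Pcdh7 (0.29). Pcdh7 shares 2235 exonic bases with a gene on the opposite strand. For each of the 9 higher genes described the difference stayed positive when any single library was left out.

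Among genes lower with HPBCD, Nnat came first. It encodes neuronatin, a small imprinted membrane protein (chromosome 2, 157560078 to 157562522, plus strand, GRCm38), and 87 of its exonic bases overlap a gene on the opposite strand. Its level in vehicle replicates 1 to 5 was 41.1, 60.7, 71.1, 62.1 and 42.1 CPM, and in HPBCD replicates 1 to 5 it was 33.3, 23.8, 32.3, 23.4 and 26 CPM. Every HPBCD library lay below every vehicle library. The means were 55.4 ± 13.2 and 27.8 ± 4.73 CPM (SD, n = 5 each), a log2 difference of -1.004 (SE 0.16, 95% interval -1.35 to -0.66, edgeR adjusted p = 0.236). DESeq2 gave an adjusted p of 1.25e-05. Leaving out each library in turn gave -1.09 to -0.90, and without the 3 libraries the difference was -1.10.

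The other 9 lower genes had log2 differences from -0.56 to -0.29. H2-DMa, which loads peptides onto class II molecules, was at 11.5, 11.8, 11.8, 12.3 and 11.3 CPM with vehicle and at 8.58, 7.65, 9, 7.23 and 9.25 CPM with HPBCD. The vehicle values differed little from each other and the groups did not overlap (log2 difference -0.50, SE 0.10, edgeR adjusted p = 0.405). Hpcal1, a neuronal calcium sensor gene, differed by -0.56, Ehbp1l1 by -0.49, Phf13 by -0.47, Otulinl by -0.47, the retinol carrier Rbp4 by -0.44, Pianp by -0.35 and the histone demethylase Kdm4a by -0.29.

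**Figure D3:**
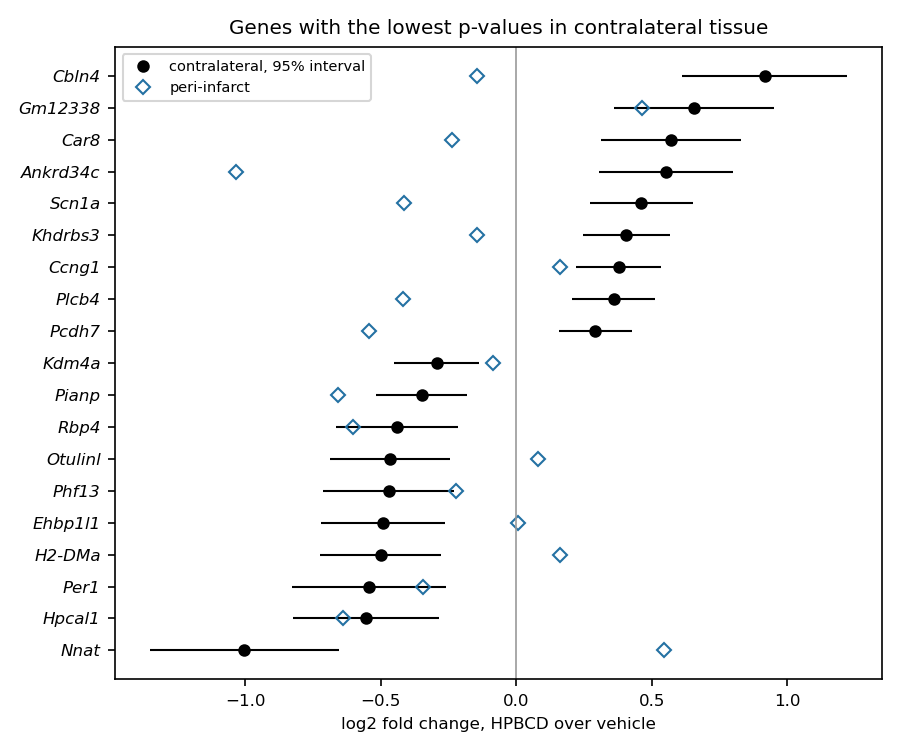
Log2 fold change of HPBCD over vehicle for 19 of the genes with the lowest p in contralateral tissue among those whose groups did not overlap (black points, lines give the 95% interval, 5 libraries per group), with the same contrast in peri-infarct tissue as open diamonds. Contralateral values ran from -1.004 for Nnat to 0.92 for Cbln4, and the peri-infarct values of Nnat, Scn1a and Ankrd34c had the opposite sign.

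Per1, a core repressor of the circadian clock that is also induced by activity (chromosome 11, 69095217 to 69109960, plus strand), was also among the 10 lower genes. It measured 64.7, 76.1, 63.8, 99.3 and 84.1 CPM with vehicle and 51.1, 53.7, 59.8, 42.5 and 60.7 CPM with HPBCD. The groups were apart by a small margin, and the log2 difference was -0.54 (SE 0.13, edgeR adjusted p = 0.422). Of the 17 circadian clock genes tested, 7 were higher and 10 lower, with a median of -0.05 against -0.01 for all genes, and 4 had an unadjusted p under 0.05 (23.5%, against 7.91% of all genes). Hlf, a clock output factor, was the other clock gene without overlap, a share of 11.8% of the list beside 1.44% of all genes: 319, 356, 292, 315 and 336 CPM with vehicle and 364, 426, 435, 395 and 420 CPM with HPBCD (log2 difference 0.32, SE 0.07, edgeR adjusted p = 0.422).

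The immediate early genes leaned to lower values with HPBCD as a group. All 17 on the list were tested, 16 were lower and 1 was higher, the median was -0.60 against -0.01 for all genes, and 10 had an unadjusted p under 0.05, against 7.91% of all genes. None passed the edgeR threshold, and none of the 17 was free of overlap between the groups. Among the 56 genes called by DESeq2 were Junb (DESeq2 adjusted p = 0.002), Ccn1 (0.0237), Egr4 (0.0489) and Nr4a1 (0.0489) of this list. Without the 3 libraries all 17 were lower, the median was -0.73 and 12 had an unadjusted p under 0.05, against 3.71% of all genes in that fit. Of the libraries left out, vehicle replicate 1 had the lowest list level of its group (-0.72, the others -0.26 to 0.49). HPBCD replicates 3 and 4 stood at -0.25 and -0.71, within an HPBCD range of -0.71 to -0.23. Leaving out vehicle replicate 1 widens the difference by itself, so this fit is a description and no added support. The median ranged from -0.77 to -0.50 when each library was left out in turn.

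Junb, an AP-1 transcription factor (chromosome 8, 84974484 to 84978718, minus strand), measured 104, 152, 157, 200 and 207 CPM in vehicle replicates 1 to 5. In HPBCD replicates 1 to 5 it measured 85.6, 71.8, 107, 80.8 and 113 CPM. Only vehicle replicate 1, the library with striatal RNA, lay inside the HPBCD range. The log2 difference was -0.85 (SE 0.17, 95% interval -1.23 to -0.47, edgeR adjusted p = 0.405; DESeq2 adjusted p = 0.002).

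Nr4a1, an orphan nuclear receptor induced by activity, measured 54.5, 75.9, 81.9, 118 and 126 CPM with vehicle and 41.7, 43.1, 65.3, 48.1 and 67.8 CPM with HPBCD (log2 difference -0.79, edgeR adjusted p = 0.483). Fos measured 7.85, 23.6, 30.9, 45.5 and 47.3 CPM with vehicle and 11.3, 13.8, 23.3, 13.3 and 23.5 CPM with HPBCD (-0.88, edgeR adjusted p = 0.598). Egr2 measured 2.38, 3.78, 6.27, 14.5 and 11.1 CPM with vehicle and 1.62, 2.09, 3.7, 1 and 3.71 CPM with HPBCD (-1.66, edgeR adjusted p = 0.503). In these 3 genes vehicle replicates 4 and 5 were the highest of the 10 libraries, vehicle replicate 1 was the lowest of its group, and HPBCD replicates 3 and 5 were the highest of theirs.

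Jun was the single member with a higher value (0.09), and Egr3 was close to 0 (-0.03). Ccn1, a matrix protein gene of the early response, differed by -0.95, Npas4 by -0.64, the phosphatase gene Dusp1 by -0.64, the synaptic gene Arc by -0.60, Egr4 by -0.59 and Fosb by -0.41, all with an unadjusted p under 0.05. Egr1 differed by -0.25 with an interval from -0.63 to 0.13. The late activity-regulated genes, which follow hours after the early ones, did not share the lean: 4 of 9 were higher and 5 lower, with a median of -0.08, and Vgf was the single member of 9 with an unadjusted p under 0.05, a share of 11.1% beside 7.91% of all genes (log2 difference -0.42, edgeR adjusted p = 0.482).

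**Figure D4:**
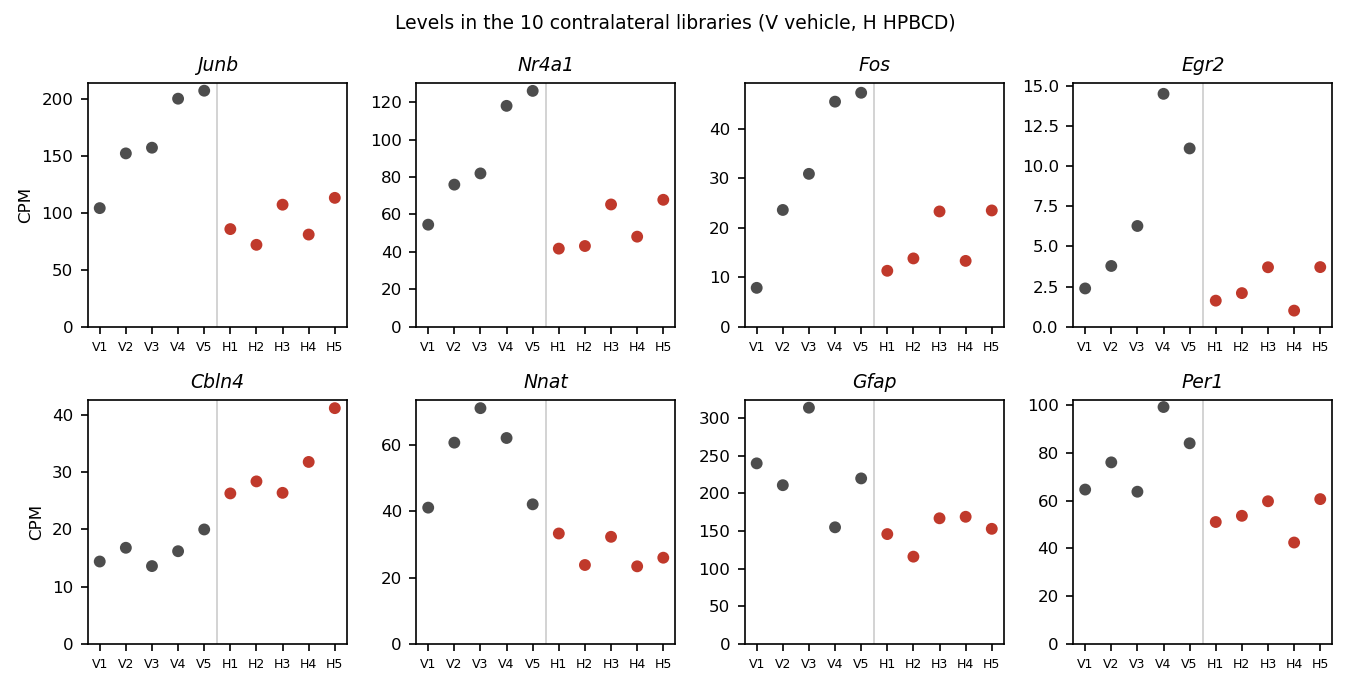
CPM of 8 genes in each contralateral library (V1 to V5 vehicle, grey; H1 to H5 HPBCD, red), each axis starting at 0. Cbln4, Nnat and Per1 did not overlap between the groups, while Junb, Nr4a1, Fos and Egr2 overlapped through V1 alone and Gfap through V4.

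Immediate early genes are switched on through short promoter elements, among them the cyclic AMP response element. Its core, spelled TGACG and read as CGTCA on the other strand, lay within the 250 bases before the start of 11 of the 13 list members that had a RefSeq promoter, against 19.8% of 27025 genes with one, and the full palindrome TGACGTCA, which contains the core on both strands, lay there in 2 of 13 against 1.77%. A gene counted when any of its listed starts held the letters. The windows of 4 of the list members lower with HPBCD are printed to show where the core sits. They are given 5′ to 3′ on the gene's strand from RefSeq (GRCm38.p6), with each core on either strand in capitals. The Junb window is chr8:84978749-84978998 (minus strand), that of Nr4a1 chr15:101266596-101266845 (plus), that of Fos chr12:85473640-85473889 (plus) and that of Dusp1 chr17:26508473-26508722 (minus).
Junb: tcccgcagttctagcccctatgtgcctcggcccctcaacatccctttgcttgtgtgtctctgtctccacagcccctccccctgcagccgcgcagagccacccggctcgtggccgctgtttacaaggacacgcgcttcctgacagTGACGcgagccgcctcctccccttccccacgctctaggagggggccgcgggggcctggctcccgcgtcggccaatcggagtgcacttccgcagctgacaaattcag
Nr4a1: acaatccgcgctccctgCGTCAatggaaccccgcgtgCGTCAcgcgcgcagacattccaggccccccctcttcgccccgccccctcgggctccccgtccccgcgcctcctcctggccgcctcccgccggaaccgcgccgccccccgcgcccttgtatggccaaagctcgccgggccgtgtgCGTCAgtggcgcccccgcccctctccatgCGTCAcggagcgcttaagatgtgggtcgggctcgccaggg
Fos: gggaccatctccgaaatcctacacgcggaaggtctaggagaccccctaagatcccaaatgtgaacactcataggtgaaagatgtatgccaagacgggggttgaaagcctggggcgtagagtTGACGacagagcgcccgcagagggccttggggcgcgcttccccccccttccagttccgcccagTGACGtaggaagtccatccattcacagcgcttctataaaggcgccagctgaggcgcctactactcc
Dusp1: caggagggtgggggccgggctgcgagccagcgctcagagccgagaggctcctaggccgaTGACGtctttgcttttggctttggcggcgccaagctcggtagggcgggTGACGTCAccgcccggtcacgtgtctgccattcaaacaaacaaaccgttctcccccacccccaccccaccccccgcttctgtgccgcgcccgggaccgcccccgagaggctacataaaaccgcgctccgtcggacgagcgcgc
The core occurred once before Junb, at 4 places before Nr4a1, at 2 before Fos and at 3 before Dusp1, of which the last pair forms the palindrome. A match of letters is a description of the window and no measure of binding.

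Genes of cholesterol handling differed little between the treatments in this hemisphere. All 25 genes of sterol synthesis and SREBP2 control were tested, 6 were higher and 19 lower, and the median was -0.10 against -0.01 for all genes. For 23 of the 25 the 95% interval lay within 1.5-fold in either direction. Hmgcs1, which makes the HMG-CoA used for cholesterol, measured 318, 366, 401, 457 and 445 CPM with vehicle and 408, 460, 437, 408 and 432 CPM with HPBCD. The groups overlapped, vehicle replicate 1 was the lowest library, and the log2 difference was 0.10 (95% interval -0.10 to 0.30, edgeR adjusted p = 0.822).

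Dhcr7, the last step of cholesterol synthesis, differed by -0.21 and Sc5d, the step before it, by 0.21, both with an unadjusted p under 0.05 and with adjusted p of 0.625 and 0.598 in edgeR. Without the 3 libraries 8 of the 25 were higher and 17 lower, the median was -0.09 and none had an unadjusted p under 0.05.

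Of the 15 genes of cholesterol efflux, oxysterols and LXR control, 13 were tested, 6 higher and 7 lower with a median of -0.03, and 11 had intervals within 1.5-fold. Abca1, the main exporter of cellular cholesterol, measured 28.4, 29.9, 28.6, 27.1 and 26.1 CPM with vehicle and 24.8, 30.9, 37.7, 30.5 and 25.3 CPM with HPBCD. The vehicle values lay inside the HPBCD range, and the log2 difference of 0.08 (95% interval -0.16 to 0.32) became -0.02 at the lowest when single libraries were left out. Apoe, the lipid carrier of astrocytes, differed by -0.11 (95% interval -0.34 to 0.12). Cyp46a1, which makes 24-hydroxycholesterol in neurons, differed by -0.18 (95% interval -0.40 to 0.03). Srebf1, an LXR target that drives fatty acid synthesis, was the single member of 13 with an unadjusted p under 0.05 (7.69%, beside 7.91% of all genes), at 68.8 ± 9.81 CPM with vehicle and 56.6 ± 3.6 CPM with HPBCD (SD, n = 5 each; log2 difference -0.29, edgeR adjusted p = 0.526).

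The lysosomal genes were the most tightly bounded. All 20 were tested, 7 were higher and 13 lower, the median was -0.06, and the interval lay within 1.5-fold for all 20. Npc1, which moves cholesterol out of the lysosome, differed by -0.07 (95% interval -0.26 to 0.13). Smpd1, the acid sphingomyelinase gene, had the only unadjusted p under 0.05 of the 20, a share of 5.0% beside 7.91% of all genes (-0.15, 95% interval -0.28 to -0.01, edgeR adjusted p = 0.598). In the peri-infarct tissue of the same animals the medians of the sterol, efflux and lysosomal lists were -0.48, 0.39 and 0.53.

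Homeostatic microglial genes had a median of -0.05 (3 higher and 8 lower of 11), and all 11 intervals lay within 1.5-fold. Astrocyte genes had a median of 0.08 and endothelial genes one of -0.05, each over 11 genes with 11 intervals within 1.5-fold. Disease-associated microglial genes had a median of -0.03 over 10 tested, with 4 intervals within 1.5-fold. Genes of complement had a median of -0.12 over 11, ranging from -0.99 to 1.26, with 4 intervals within 1.5-fold, and genes of the interferon response one of -0.08 over 10, with 2. The 8 genes of oligodendrocyte precursors were all lower, with a median of -0.21, and without the 3 libraries all 8 were again lower, with a median of -0.19. None of the 8 had an unadjusted p under 0.05 with all libraries, against 7.91% of all genes. The precursor list level was 0.221, 0.165 and 0.136 in vehicle replicates 1, 3 and 5, and -0.215 and -0.307 in vehicle replicates 2 and 4. It was -0.32 to -0.117 in the HPBCD libraries. The part of the share of white matter in this difference was not tested.

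Gfap, the intermediate filament of reactive astrocytes (chromosome 11, 102887336 to 102900912, minus strand), belonged to a list of 10 tested genes whose median was -0.03. It measured 240, 211, 314, 155 and 220 CPM with vehicle and 146, 116, 167, 169 and 153 CPM with HPBCD. Only vehicle replicate 4 lay inside the HPBCD range, and vehicle replicate 3, the library with ependymal RNA, was the highest. The log2 difference was -0.61 (SE 0.16, edgeR adjusted p = 0.443; DESeq2 adjusted p = 0.0422). Cd44, a hyaluronan receptor of reactive astrocytes and immune cells, was the other member of the list with an unadjusted p under 0.05, at 1.67 to 3.49 CPM with vehicle and 1.42 to 2.51 CPM with HPBCD (-0.54, edgeR adjusted p = 0.625), which made 2 of 10 against 7.91% of all genes. C4b, a complement component, measured 66.5, 27.7, 56.2, 22.3 and 33.5 CPM with vehicle and 20.4, 16.3, 29.3, 23.6 and 15 CPM with HPBCD (-0.99, edgeR adjusted p = 0.503), with overlap through vehicle replicates 2 and 4.

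All 15 genes of myelin and oligodendrocytes were lower with HPBCD, with a median of -0.35, and a single one had an unadjusted p under 0.05, a share of 6.67% beside 7.91% of all genes. Mbp, which encodes myelin basic protein, measured 5990, 3670, 6770, 2490 and 6320 CPM with vehicle and 3670, 2910, 3720, 3790 and 3520 CPM with HPBCD (-0.53, edgeR adjusted p = 0.579). Vehicle replicates 1, 3 and 5 lay above all HPBCD libraries, replicate 2 lay inside their range and replicate 4 below it. The list level showed the same split, at 0.58, 0.38 and 0.40 in vehicle replicates 1, 3 and 5, -0.61 and -0.74 in replicates 2 and 4, and -0.42 to -0.12 in the HPBCD libraries. Vehicle replicates 1 and 3 also carried the most C4b. The part of the share of white matter in these differences was not tested.

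**Figure D5:**
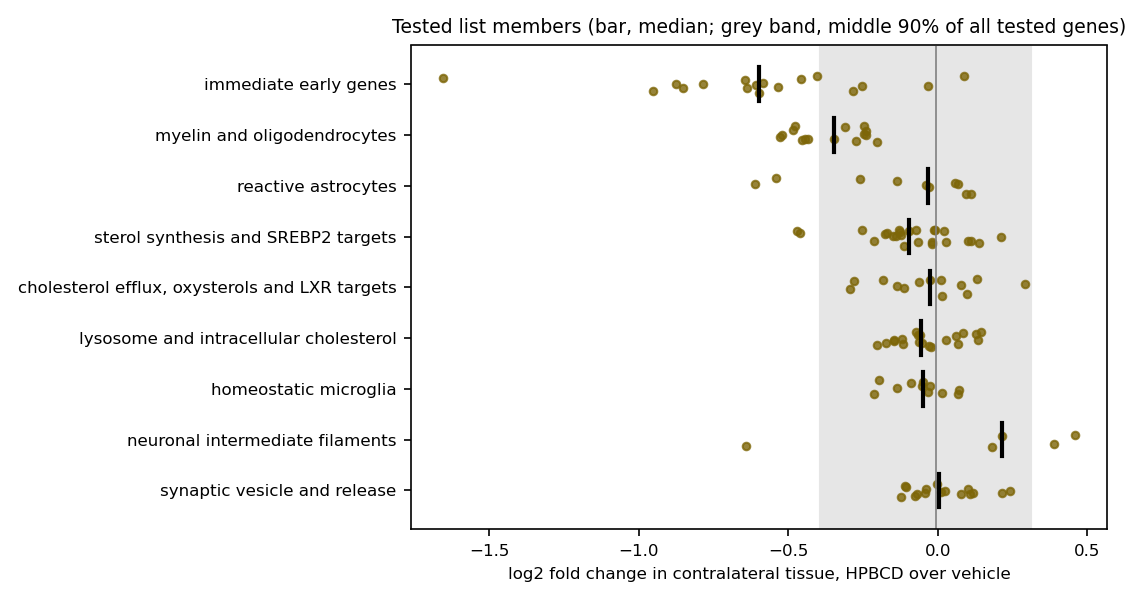
Log2 fold change of HPBCD over vehicle in contralateral tissue for each tested member of 9 lists (points; black bars give list medians), with the middle 90% of all 15469 tested genes as a grey band. The immediate early genes had a median of -0.60 and the myelin genes one of -0.35, while the sterol, efflux, lysosomal and microglial genes lay around 0.

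Of the 5 neuronal intermediate filament genes, Nefh differed by 0.46, Nefm by 0.39, Ina by 0.21 and Nefl by 0.18, whereas Prph differed by -0.64, all 5 with an unadjusted p under 0.05, against 7.91% of all genes. Nefl and Nefm share 1108 exonic bases on opposite strands. Their groups overlapped, as for Nefm at 522, 497, 365, 381 and 538 CPM with vehicle and 602, 635, 531, 637 and 631 CPM with HPBCD. The 16 genes of synaptic vesicles and release had a median of 0.003 and 16 intervals within 1.5-fold. Snap25, a core protein of vesicle fusion, did not overlap, at 4330, 5380, 4750, 4480 and 5220 CPM with vehicle and 6140, 5410, 5400, 5770 and 6040 CPM with HPBCD (0.24, edgeR adjusted p = 0.503). Cplx1, which binds the vesicle fusion complex, differed by 0.21 with overlap between the groups (edgeR adjusted p = 0.613).

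Among genes of inhibitory neurons, Gad1, the GABA-synthesising enzyme, differed by 0.21 and the neuropeptide gene Cort by -0.75, and the median of the 11 was -0.05. Of the 17 cortical layer genes, 9 were higher and 8 lower with a median of 0.01. At an unadjusted p under 0.05, 3 were higher and 2 lower, a share of 29.4% beside 7.91% of all genes. Rorb, a transcription factor of layer 4, differed by 0.44 and Scnn1a, also of layer 4, by 0.54. The 2 lower ones were Nxph4 (-0.69) and Cplx3 (-0.46). Slc17a6, the vesicular glutamate transporter of thalamus and some cortical cells, measured 15.7, 21.3, 23.6, 30.1 and 33.2 CPM with vehicle and 34.3, 43.9, 33.1, 34.2 and 31.9 CPM with HPBCD (0.51, edgeR adjusted p = 0.548). It was the single member of the 8 thalamus genes with an unadjusted p under 0.05, a share of 12.5% beside 7.91% of all genes. Of those 8 genes, 4 were higher and 4 lower, with a median of -0.005. None passed the threshold.

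Ion channel and receptor families were counted after the values of Scn1a had been seen, so their counts are descriptions. Of 78 potassium channel genes tested, 47 were higher and 31 lower with a median of 0.08, and 14 were higher and 2 lower at an unadjusted p under 0.05 (20.5% of the family, against 7.91% of all genes). Kcnc1 and Kcnab2, with log2 differences of 0.33 and 0.19, did not overlap, a share of 2.56% against 1.44% of all genes. Of 16 GABA-A and glycine receptor genes, 10 were higher and 6 lower with a median of 0.04. At an unadjusted p under 0.05, 3 were higher and 0 lower (18.8%, against 7.91% of all genes). The groups did not overlap for 3 of the 16 (18.8%, against 1.44% of all genes). Among these was Glrb, the β subunit of the glycine receptor, which differed by 0.27. The 12 sodium channel, 23 calcium channel and 17 glutamate receptor genes had medians of 0.08, -0.01 and -0.03. Cacna1a, the pore of the P/Q-type calcium channel, differed by 0.27 and its partner Cacnb4 by 0.26, both without overlap.

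Among the 35 lists, the striatal and choroid plexus lists gave the largest medians in either direction, and both rested on a single library. The striatal genes had a median of -1.67, with all 16 tested genes lower and 11 at an unadjusted p under 0.05, a share of 68.8% beside 7.91% of all genes. Without vehicle replicate 1 the median was -0.02. The 3 choroid plexus genes that passed the filter had a median of 1.61, and of -0.13 without HPBCD replicate 3. Drd2 differed by -4.56 with all libraries and by 0.03 without vehicle replicate 1.

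Whether HPBCD did the same in both hemispheres was asked with a region by treatment term over all 20 libraries. It passed the edgeR threshold for 1577 of 16758 genes (9.41%). Nnat had a log2 difference of -1.004 in contralateral and of 0.54 in peri-infarct tissue (interaction 1.55, edgeR adjusted p = 0.0104). Gfap had one of -0.61 in contralateral and of 1.03 in peri-infarct tissue (interaction 1.64, edgeR adjusted p = 0.0234), and C4b an interaction of 1.88 (edgeR adjusted p = 0.0201). Gfap ranged from 574 to 2810 CPM in the vehicle and from 2470 to 4590 CPM in the HPBCD peri-infarct libraries.

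Of the 17 immediate early genes, Ccn1 passed the interaction (1.39, edgeR adjusted p = 0.0306), 1 of 17 beside 9.41% of all genes, and the list median was -0.40 in peri-infarct tissue. Nr4a1 differed by -0.68 and Dusp1 by -0.65 there, beside -0.79 and -0.64 in contralateral tissue. Of the sterol genes, 5 of 25 passed the interaction, among them Hmgcs1 (-0.59, edgeR adjusted p = 0.0167).

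Among the genes higher with HPBCD at an unadjusted p under 0.05 in contralateral tissue, 42.2% of 593 were also higher in peri-infarct tissue, and of the lower ones 56.7% of 616 were also lower, against 48.8% and 50.3% among all genes of either sign. Both contrasts use different libraries of the same animals. The interaction count was 845 without vehicle replicate 1 and HPBCD replicate 3, and 9 without the 3 libraries, where Nnat was the only one still called of the 27 genes described here that had passed it. Leaving out single libraries of either region gave 529 to 3121, so libraries that did not stand apart moved it as well, and the cause of these changes was not tested. The peri-infarct libraries held striatal RNA throughout, and other tissue differed between the treatments there. The ependyma list level was 0.06 to 2.20 in vehicle and 2.78 to 3.68 in HPBCD peri-infarct libraries, above the vehicle contralateral average. For fibroblasts and meninges it was 0.01 to 2.31 and 2.725 to 3.97. Choroid plexus levels overlapped, at 0.50 to 2.54 and 1.75 to 4.81. Foxj1, which passed the interaction, belongs to the ependyma list. The part of tissue content in these interactions was not tested.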

How the data were processed

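Poly(A) RNA of 20 tissue samples was sequenced as stranded 75-base read pairs. The authors trimmed the reads (Trimmomatic 0.32), aligned them with STAR 2.5.2b to GRCm38 and deposited raw counts per gene from htseq-count; the annotation release and the strand option are not given in the sources used here. The 5 HPBCD and 5 vehicle contralateral libraries were fitted with edgeR 4.0.16 (R 4.3.3; TMM factors, filterByExpr, quasi-likelihood F test, Benjamini-Hochberg adjustment over all genes tested, threshold 0.05). DESeq2 1.42.0 and limma 3.58.1 were alternatives. The interaction used all 20 libraries without a block. Standard errors are the log2 fold change divided by the square root of F, and intervals are 95%. Of 46078 genes listed, 98.16% matched GENCODE M21, which gave symbols, positions and overlaps. The fit was tested on simulated data with known changes.

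The genes named were the 10 with the lowest p in each direction among those averaging at least 5 CPM with no overlap between groups, any gene past the threshold, and members of 35 lists. Some genes are not reported here. Members and lists were chosen with earlier results of these data known, and 5 ion channel and receptor families were added after the values were seen. Labels do not pair animals between treatments: deviations of libraries with the same number had correlations from -0.272 to 0.173. Contralateral and peri-infarct libraries of 1 animal share its identifier in the deposited names, and their correlations averaged 0.0876. The p-values measure spread between animals, 5 per group. Floors of 3 counts cover counting error only. Genes with exonic bases shared with an opposite-strand gene, whose reads cannot be told apart without the strand option, include Nnat, Pcdh7, H2-DMa, Junb, Cacna1a, Cacnb4, Nefl, Nefm, Ina, Srebf1, Hmgcs1, Npc1, Penk and Ppp1r1b.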

Additional observations from a re-analysis of the deposited data

Results flagged for a closer look

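Within a group of 5 libraries, the highest or lowest value was compared with the rest of its group by Dixon's ratio (critical value 0.71). Of 232 such groups, 25 exceeded it. Chance alone gives about 1 in 20, but that rate is no baseline here. Some genes were named because a single library stood out, and they also belong to the lists compared. The count is a description. Vehicle replicate 1 was highest for the striatal list (3.33 above the vehicle mean, log2) and for Drd2 (72.5 CPM), Adora2a (185 CPM) and Ppp1r1b (584 CPM), and lowest for the list of synaptic vesicle and release genes (-0.18). HPBCD replicate 3 was highest for the choroid plexus list (4.14), for Kl (27.4 CPM) and, within its own group, for the ependyma list (-0.33), and lowest for Dhcr7 (20.9 CPM). Vehicle replicate 3 was highest for the ependyma list (2.09). HPBCD replicate 4 was highest for fragments outside genes (9.50%), for ambiguous ones (8.03%) and for Trim30a (1210 CPM), CT010467.1 (37000 CPM) and Rn7sk (79.8 CPM).

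Vehicle replicate 5 was highest for the cortical layer list (0.33), vehicle replicate 2 for heat shock genes (0.16), and vehicle replicate 4 was lowest for lysosomal genes (-0.15). HPBCD replicate 5 was lowest for red blood cell genes (-1.31) and highest for Cacna1a (228 CPM). HPBCD replicate 2 was highest for Slc17a6 (43.9 CPM) and lowest for Mbp (2910 CPM) and Prph (0.714 CPM), and HPBCD replicate 1 was lowest for Rorb (63.7 CPM) and Sc5d (47.1 CPM).

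The treatment difference differed between the hemispheres, by the region by treatment term in edgeR at an adjusted p under 0.05, for 27 genes described in the text. The part of tissue content in these terms was not tested. On the log2 scale (peri-infarct difference minus contralateral difference) the term was positive for Foxj1 (1.97), C4b (1.88), Cd44 (1.66), Gfap (1.64), Nnat (1.55), Ccn1 (1.39), Mbp (1.20), Srebf1 (0.80), H2-DMa (0.66) and Otulinl (0.54). It was negative for Slc17a6 (-1.996), Ankrd34c (-1.59), Snap25 (-0.93), Scn1a (-0.88), Kcnc1 (-0.88), Pcdh7 (-0.84), Car8 (-0.81), Cacnb4 (-0.80), Plcb4 (-0.78), Rorb (-0.78), Ina (-0.77), Cplx1 (-0.67), Cacna1a (-0.60), Hmgcs1 (-0.59), Glrb (-0.58), Gad1 (-0.56) and Hlf (-0.54).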

How the results depend on the processing

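The contralateral count of 0 genes held with limma voom, RLE and upper quartile factors, a stricter filter, thinned counts, a robust fit, tissue covariates, all 4 groups in the fit and every single library left out. It was 56 with DESeq2 and 2 without a filter (Cbln4 and Nnat). With the replicate number as a block it was 1 (Cbln4), although the numbers are names only: 1 of 5 same-numbered pairs had a correlation over 0.1 and 0 of 5 correlated best with their own number. The 1224 genes at an unadjusted p under 0.05 became 2893 with limma voom, 585 without the 3 libraries and, of the genes tested, 5.76% (903 genes, without HPBCD replicate 4) to 12% (without vehicle replicate 4) when single libraries were left out; without HPBCD replicate 1 it was 11.6%. The 1577 interaction genes became 2514 with DESeq2, 4110 with limma voom, 845 without vehicle replicate 1 and HPBCD replicate 3, 9 without the 3 libraries and 529 (without vehicle peri-infarct replicate 2) to 3121 (without HPBCD peri-infarct replicate 2) when single libraries were left out. With the animal as a replicate block it was 1830. The cause of these changes was not tested.

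For 77 named genes the direction was followed over the settings. Without vehicle replicate 1 and HPBCD replicate 3, Drd2 was 0.20, Adora2a 0.15, Ppp1r1b 0.19, Kl -0.84 and Abca1 -0.009. Without the 3 libraries, Drd2 was 0.037, Penk 0.008, Ppp1r1b 0.15, Kl -0.72, Abca1 -0.054, Jun -0.03 and Cyp46a1 0.001. Egr3 was 0.24 with limma voom, 0.003 with thinned counts and 0.008 with the replicate block. With the striatal level as a covariate Ppp1r1b was 0.091, and with the choroid plexus level Kl was -0.39. Leaving out single libraries turned Abca1 (-0.018 to 0.14), Adora2a (-4.26 to 0.087), Drd2 (-4.88 to 0.027), Egr3 (-0.131 to 0.213), Rn7sk (-0.14 to 2.90), Kl (-0.70 to 2.06), Npc1 (-0.11 to 0.005) and Ppp1r1b (-1.54 to 0.16). Over all settings no other named gene changed direction.

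With 5 animals per group the edgeR test called no gene in contralateral tissue, even at log2 differences of 0.92 (Cbln4) and -1.004 (Nnat), and single animals moved the counts by over 1.5 times.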
